A study of Mus musculus with 9 samples.

Results

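Eph receptors and ephrins were followed in tumours grown from B16-F10, an established mouse melanoma line. The genes described are 7 receptors (Ephb2, Ephb3, Ephb4, Epha2, Epha3, Epha4 and Epha7) and 3 ephrins (Efna1, Efnb1 and Efnb2), 10 of the 54532 entries in the count files and 10 of the 22 genes of the mouse family. They were chosen by the Ephb3 counts, which were near 0 in the control tumours and above 0 in every library of both groups with a hairpin against Fbxo38. The Ephb3 counts that led to this choice are therefore given as a description, with no test of either hairpin against control. All 10 were found by symbol, each on 1 entry, and all 10 had enough counts to be tested, Ephb3 by way of the hairpin libraries alone.

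The study placed the cells under the skin of C57BL/6 mice and took the tumours on day 16 for bulk RNA sequencing, with 3 libraries in each of 3 groups. The control group carried a control short hairpin RNA, titled shcontrol, and its genotype is given as WT. The other groups carried the hairpins titled shFBXO38#1 and shFBXO38#2, called hairpin 1 and hairpin 2 here, and their genotype labels run from FBXO38 knockdown to FBXO43 knockdown in sample order. No group had a further treatment. The sources used here give neither the age and sex of the mice nor whether a line was 1 clone. Nothing says that replicates came from separate mice, and every p-value therefore rests on a spread that may be technical. Fbxo38 encodes an F-box protein, which brings substrates to an SCF ubiquitin ligase. The tissue holds host vessels, fibroblasts and blood cells beside the melanoma cells, and in such bulk samples fewer cells of a type and less RNA per cell cannot be told apart.

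Eph receptors are the most numerous family of receptor tyrosine kinases, and their ligands, the ephrins, sit on the surface of neighbouring cells, so that signalling needs cell contact. A-class ephrins are held by a lipid anchor and mostly bind EphA receptors, whereas B-class ephrins span the membrane and mostly bind EphB receptors, with EphA4 binding both. Signals run forward into the receptor cell and in reverse into the ephrin cell, and commonly lead to repulsion or sorting of cells. In vessels, Efnb2 marks arterial and Ephb4 venous endothelium. Ephb2 and Ephb3 are known for placing cells along the intestinal crypt, and Epha2 and Epha3 are studied as tumour antigens.

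Promoter sequences are shown for Ephb3 and Efnb2, the pair that stood above every control in all 6 hairpin libraries, and for Epha3, the family member with the highest level. Each is 200 bases long and runs from 250 to 51 bases before the RefSeq start, on GRCm38.p6. The Ephb3 window lies at chr16:21204545-21204744 on the plus strand, that of Efnb2 at chr8:8661293-8661492 on the minus strand and that of Epha3 at chr16:63864226-63864425 on the minus strand. Capitals mark matches to the GC box GGGCGG on either strand.
Ephb3: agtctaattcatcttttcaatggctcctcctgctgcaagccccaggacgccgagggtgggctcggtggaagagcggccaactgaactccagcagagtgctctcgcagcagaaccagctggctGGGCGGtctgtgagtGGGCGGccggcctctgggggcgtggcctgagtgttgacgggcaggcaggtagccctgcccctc
Efnb2: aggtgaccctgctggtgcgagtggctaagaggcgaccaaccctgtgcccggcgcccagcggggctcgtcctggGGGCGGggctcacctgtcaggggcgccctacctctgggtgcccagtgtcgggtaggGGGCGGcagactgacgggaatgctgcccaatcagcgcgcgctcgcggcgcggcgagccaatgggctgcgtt
Epha3: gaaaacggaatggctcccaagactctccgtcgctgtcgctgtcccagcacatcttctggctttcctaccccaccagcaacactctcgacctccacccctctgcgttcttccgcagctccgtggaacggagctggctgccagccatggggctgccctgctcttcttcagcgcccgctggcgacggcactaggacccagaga
The Ephb3 window held 2 GC boxes, the Efnb2 window 2 and the Epha3 window 0, and 24.6% of the 32851 windows of this length held at least 1. The windows held 10, 20 and 13 CG dinucleotides against a median of 4. Both strands were also searched for the E-box CANNTG (in 59.0% of all windows), its form CACCTG (14.4%), TATAAA (9.14%), TGGGAA (17.9%) and CTTTGA (11.8%). Ephb3 had 2 matches to CANNTG and Efnb2 had 1, which was also its match to CACCTG, and the Epha3 window had none of these motifs. A match is a run of letters and does not show that a factor binds.

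The libraries held 15322163 to 17342554 counts, and 14193 genes were tested. A pair of libraries stood apart on principal component 1, which held 35.8% of the variance: the first was replicate 1 of the group labelled hairpin 1, at 60.6, and the other was hairpin 2 replicate 2, at -54.8. The remaining 7 scored between -21.5 and 30.7. All 10 melanocyte markers were counted and summed to between 22041 and 28671 CPM (counts scaled to 1000000 per library, with TMM factors) across the libraries. Fbxo38 stood at 21.7, 31.3 and 30.8 CPM in the controls and at 35.11, 20.99 and 22.03 CPM in the libraries labelled hairpin 1, so the groups overlapped. It stood at 20.96, 11.39 and 11.88 CPM with hairpin 2, below every control. The edgeR log2 fold change was -0.10 (SE 0.28, adjusted p = 1.00) labelled hairpin 1 and -0.92 (SE 0.29, adjusted p = 0.254) with hairpin 2, with exact two-sided permutation p values of 0.9 and 0.1, the latter the smallest that 3 against 3 allow. Since Fbxo38 was not detectably lower in the first hairpin group, its libraries are called by their label. With hairpin 2 the lower values did not reach an edgeR adjusted p under 0.05 either, and replicate 1 lay close to the lowest control.

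Among the members, Epha3 had the highest level per transcript length. It stood at 34.19 ± 2.95 CPM per kb (SD, n = 3) in the controls, 36.01 ± 4.96 labelled hairpin 1 and 27.3 ± 5.36 with hairpin 2, and in each group its lowest library was above the highest library of every other family gene. Ephb4 came next among the members, at 6.08 ± 2.62, 7.90 ± 3.18 and 9.21 ± 1.47 CPM per kb. In the controls Efnb1 followed at 2.72 ± 0.448 and Efna1 at 1.99 ± 0.359 CPM per kb, and the library ranges of these 4 genes did not overlap with one another. Epha7 (1.16 ± 0.222), Efnb2 (1.03 ± 0.305) and Epha2 (0.943 ± 0.238) had library ranges that overlapped with one another, and Ephb2 (0.406 ± 0.165) and Epha4 (0.211 ± 0.138) overlapped as well. Ephb3 was last of the members in the controls, at 0.00835 CPM per kb, and reached 0.292 ± 0.109 labelled hairpin 1 and 0.345 ± 0.328 with hairpin 2. Its range lay above that of Epha4 in the first of these groups (0.198 to 0.412 against 0.14 to 0.181) and overlapped with it in the second (0.0661 to 0.706 against 0.169 to 0.302). With the length of all exons merged in place of the longest transcript, Epha3 stood at 22.3, 23.5 and 17.8 CPM per kb in the 3 groups and was still first.

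**Figure D1:**
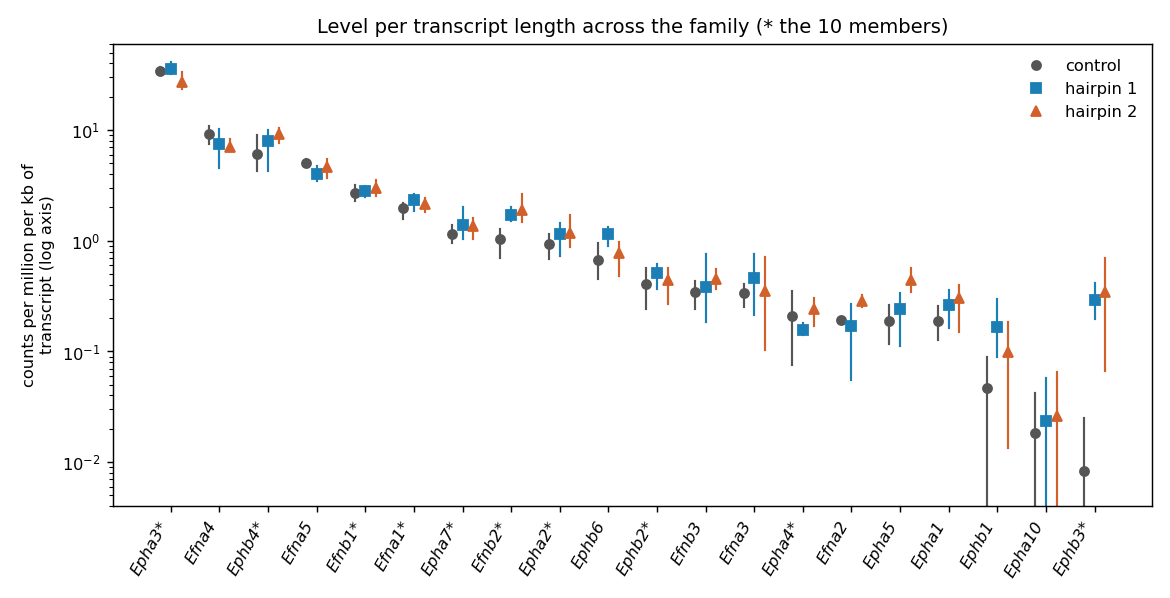
Mean level per transcript length (CPM per kb, log axis) of the 20 family genes with any count, for control, labelled hairpin 1 and hairpin 2, with lines from the lowest to the highest of 3 libraries. Lines that reach the lower edge include a library at 0, asterisks mark the 10 members, and Epha3 stands above all others while Ephb3 is last in the controls.

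Over the whole family, summed per length, the 9 A-class receptors stood at 36.9 ± 3.112 CPM per kb in the controls and the 5 B-class receptors at 7.21 ± 3.03. The 5 A-class ephrins summed to 16.9 ± 1.76 CPM per kb and the 3 B-class ephrins to 4.10 ± 0.711. The A-class sums of the hairpin groups, 39.2 ± 5.23 and 30.8 ± 5.32 for receptors and 14.5 ± 3.41 and 14.5 ± 1.88 for ephrins, overlapped with control. The B-class sums stood higher in both groups, at 10.01 ± 3.38 and 10.9 ± 0.851 for receptors and 4.91 ± 0.650 and 5.37 ± 0.881 for ephrins, and their libraries also overlapped with control. These sums were not tested. Most of the A-class ephrin level came from genes outside the members: in the controls Efna4 stood at 9.31 ± 1.75 and Efna5 at 5.06 ± 0.442 CPM per kb. Exons of Efna4 overlap 4731419I09Rik on the other strand. Since the sources used here do not name the strand setting, counts of these cannot be told apart where they overlap.

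Ephb3, a B-class receptor (GRCm38 chromosome 16, 21204755 to 21223305, plus strand, with no overlapping exons of another gene in GENCODE M21), had 0, 0 and 2 counts in the 3 control libraries. It had 33, 14 and 20 counts in the libraries labelled hairpin 1 and 5, 21 and 55 with hairpin 2. In CPM these are 0, 0 and 0.119 against 1.95, 0.942 and 1.26 labelled hairpin 1 and 0.314, 1.25 and 3.35 with hairpin 2. Every hairpin library was above every control, with the narrowest gap at replicate 1 of hairpin 2, where 5 counts stand against 2. A count of 0 allows up to 0.179 CPM in control replicate 1 and 0.196 CPM in control replicate 2 (3 counts).

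The ratio of summed Ephb3 counts to control, per scaled library size, was 34.4 labelled hairpin 1 (67 counts against 2, 95% exact interval for counting error alone 9.16 to 289.9) and 40.3 with hairpin 2 (81 against 2, interval 10.8 to 338.4). Both ratios share the same 2 control counts, and the Ephb3 counts chose the members, so neither the ratios nor their intervals carry a test. The intervals pool the libraries of a group and leave out the spread between them, which held 5, 21 and 55 counts with hairpin 2. Leaving out 1 library gave 22.6 to 39.6 and 19.4 to 56.0. The ratio with hairpin 2 was 19.4 without its replicate 3, and without control replicate 1 or 2 the ratios were 22.6 and 23.6 labelled hairpin 1 and 26.5 and 27.7 with hairpin 2. Without control replicate 3 no control count was left. Against the same limit of 3 counts in each remaining control library, the ratios were at least 7.52 and at least 8.81. That limit is for counting alone and leaves out the spread between libraries. Without both libraries that stood apart the ratios were 27.1 and 45.3. Between the hairpins, a contrast that did not choose the members, the log2 fold change was 0.24 (95% interval -1.51 to 1.99, edgeR adjusted p = 0.925), so a difference of several fold in either direction is within the error.

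Ephb4, the receptor of venous endothelium (chromosome 5, with exons that overlap Zan on the other strand), stood at 39.4, 21.04 and 18.7 CPM in the controls. It stood at 18.4, 40.6 and 43.8 CPM labelled hairpin 1 and at 40.9, 45.8 and 33.1 CPM with hairpin 2. The libraries did not follow the groups: 3 libraries lay between 18.4 and 21.04 CPM, 2 controls and 1 labelled hairpin 1, and the other 6 at 33.1 CPM or more. Counts of Ephb4 and Zan cannot be told apart where they overlap, since the sources used here do not name the strand setting. The log2 fold change was 0.38 (SE 0.37, edgeR adjusted p = 1.00) labelled hairpin 1 and 0.60 (SE 0.37, adjusted p = 0.48) with hairpin 2.

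Ephb2, the third B-class receptor here, stood at 6.21, 4.44 and 2.62 CPM in the controls, at 5.92, 3.97 and 6.69 CPM labelled hairpin 1 and at 5.21, 2.92 and 6.21 CPM with hairpin 2. The groups overlapped throughout. Its log2 fold changes were 0.32 (SE 0.38, edgeR adjusted p = 1.00) and 0.11 (SE 0.38, adjusted p = 0.916), and the second was negative without control replicate 3 (-0.16), without replicate 3 of hairpin 2 (-0.12) and after removal of the length trend described with the partners (-0.21).

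Epha3, which binds A-class ephrins, stood at 212.6, 187.1 and 181.2 CPM in the controls. It stood at 180.6, 235.1 and 196.0 CPM labelled hairpin 1 and at 189.1, 140.8 and 133.2 CPM with hairpin 2. The first hairpin group overlapped with control, and with hairpin 2 replicates 2 and 3 lay below every other library while replicate 1 lay within the control range. The log2 fold change with hairpin 2 was -0.33 against control (SE 0.15, 95% interval -0.66 to 0.01, edgeR adjusted p = 0.358) and -0.40 against hairpin 1 (SE 0.15, 95% interval -0.74 to -0.06, unadjusted p = 0.0239, adjusted p = 0.391), with 2 of 3 libraries below all 3 of the other hairpin. With the label of hairpin 1 it was 0.07 (SE 0.15, adjusted p = 1.00). Epha3 had 2187 to 3563 counts per library, so counting error is a small part of these intervals.

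Epha2, an A-class receptor of epithelia and tumours, stood at 2.68 to 4.51 CPM in the controls, 2.83 to 5.68 labelled hairpin 1 and 3.41 to 6.74 with hairpin 2. Its highest library was replicate 2 of hairpin 2, at 6.74 CPM. The log2 fold change with hairpin 2 was 0.33 (SE 0.37, edgeR adjusted p = 0.713), and -0.049 without that replicate. Epha7, a receptor known from the developing nervous system, stood at 6.42 to 9.41 CPM in the controls, 7.07 to 13.7 labelled hairpin 1 and 7.04 to 10.8 with hairpin 2. Its highest library was replicate 2 labelled hairpin 1, and its log2 fold change there was 0.25 (SE 0.30, adjusted p = 1.00) with that library and -0.14 without it. Epha4, which also binds B-class ephrins, had 8, 34 and 22 counts in the controls, 16, 17 and 14 labelled hairpin 1 and 17, 32 and 26 with hairpin 2. The control libraries held both the lowest and the highest Epha4 count of all 9, and the log2 fold changes of -0.42 (SE 0.55) and 0.19 (SE 0.54) lay within their errors (adjusted p = 1.00 and 0.897); the first was 0.14 without control replicate 2 and the second -0.21 without control replicate 1 and -0.021 without replicate 2 of hairpin 2.

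Efnb2, the B-class ephrin of arterial endothelium (chromosome 8, 8617434 to 8661242, minus strand), stood at 5.31, 3.33 and 6.19 CPM in the controls. It stood at 9.71, 7.20 and 7.64 CPM labelled hairpin 1 and at 7.78, 12.6 and 7.07 CPM with hairpin 2. All 6 hairpin libraries were above all 3 controls, as for Ephb3 and for 1.36% of all tested genes, and no member had all 6 below, as 1.62% of all genes did. The group means were 8.18 ± 1.34 and 9.14 ± 3.0 against 4.94 ± 1.46 CPM (SD, n = 3). The log2 fold change was 0.73 labelled hairpin 1 (SE 0.30, unadjusted p = 0.0358, edgeR adjusted p = 1.00) and 0.88 with hairpin 2 (SE 0.30, unadjusted p = 0.0142, adjusted p = 0.267), so neither passed the threshold of an adjusted p under 0.05. Both comparisons use the same controls. Without both libraries that stood apart the values were 0.57 and 0.57, and leaving out single libraries gave 0.50 to 0.92 and 0.57 to 1.08, the lowest being without control replicate 2 for the first and without replicate 2 of hairpin 2 for the second. Between the hairpins it was 0.16 (95% interval -0.50 to 0.82, adjusted p = 0.852).

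Efnb1, the other B-class ephrin among the members and an X-linked gene, stood at 7.52 to 10.4 CPM in the controls, 8.07 to 10.1 labelled hairpin 1 and 8.22 to 11.6 with hairpin 2. Efna1, an A-class ephrin known from inflamed endothelium and a ligand of Epha2, stood at 2.57 to 3.59, 3.02 to 4.36 and 2.99 to 3.94 CPM. Both overlapped in all 3 groups. Their log2 fold changes were 0.06 (SE 0.21) and 0.22 (SE 0.28) labelled hairpin 1 and 0.15 (SE 0.21) and 0.10 (SE 0.28) with hairpin 2, with edgeR adjusted p values of 0.779 to 1.00. The 95% intervals with hairpin 2 ran from -0.31 to 0.60 for Efnb1 and from -0.53 to 0.73 for Efna1.

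**Figure D2:**
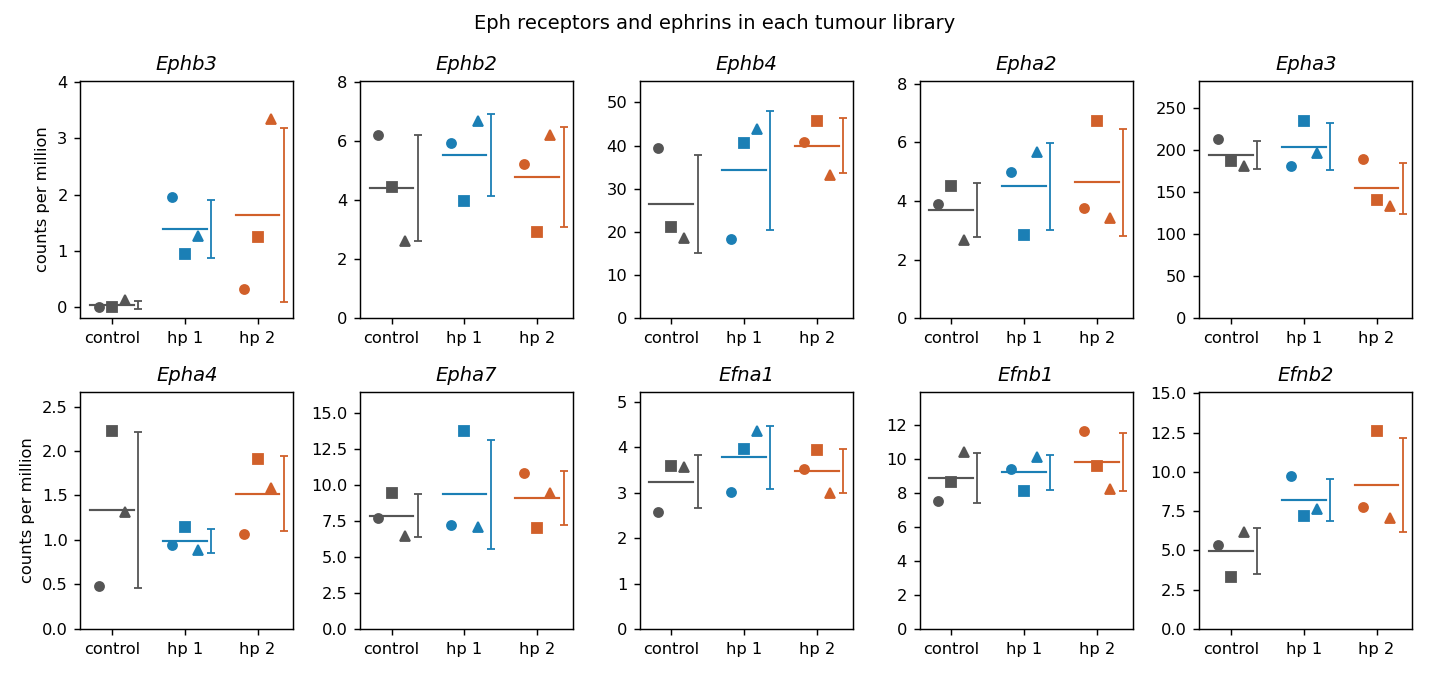
CPM of the 10 members in each library, for control, labelled hairpin 1 (hp 1) and hairpin 2 (hp 2); circles, squares and triangles are replicates 1, 2 and 3, horizontal lines are means and bars are SD (n = 3). Ephb3 and Efnb2 are above every control in all 6 hairpin libraries, and the other panels show groups that overlap.

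Counted over the 9 members other than Ephb3, 8 had a positive log2 fold change labelled hairpin 1 (median 0.25) and 8 with hairpin 2 (median 0.19), where 52.6% and 51.5% of all tested genes were positive and both medians were 0.01. None passed the adjusted threshold in either comparison, nor did any of the 14193 genes (0%); DESeq2 called 0 and 303 genes, none of these 9 members among them, and limma-voom 0 and 0. At an unadjusted p under 0.05 Efnb2 alone of the 9 passed in each, where 3.17% of all genes did labelled hairpin 1 and 14.4% with hairpin 2. Libraries lay wholly above control for Efnb2 alone of the 9 in each comparison, against 4.09% and 10.6% of all genes, and wholly below control for none, against 4.3% and 10.2%. Since the members were chosen with these contrasts known, nothing is read from these counts. Between the hairpins 6 of the 10 members were positive, none passed the adjusted threshold (0% of all genes did), and 1, Epha3, had an unadjusted p under 0.05, against 11.7% of all genes. No member had all hairpin 2 libraries above or all below those labelled hairpin 1, against 8.31% and 7.67% of all genes.

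**Figure D3:**
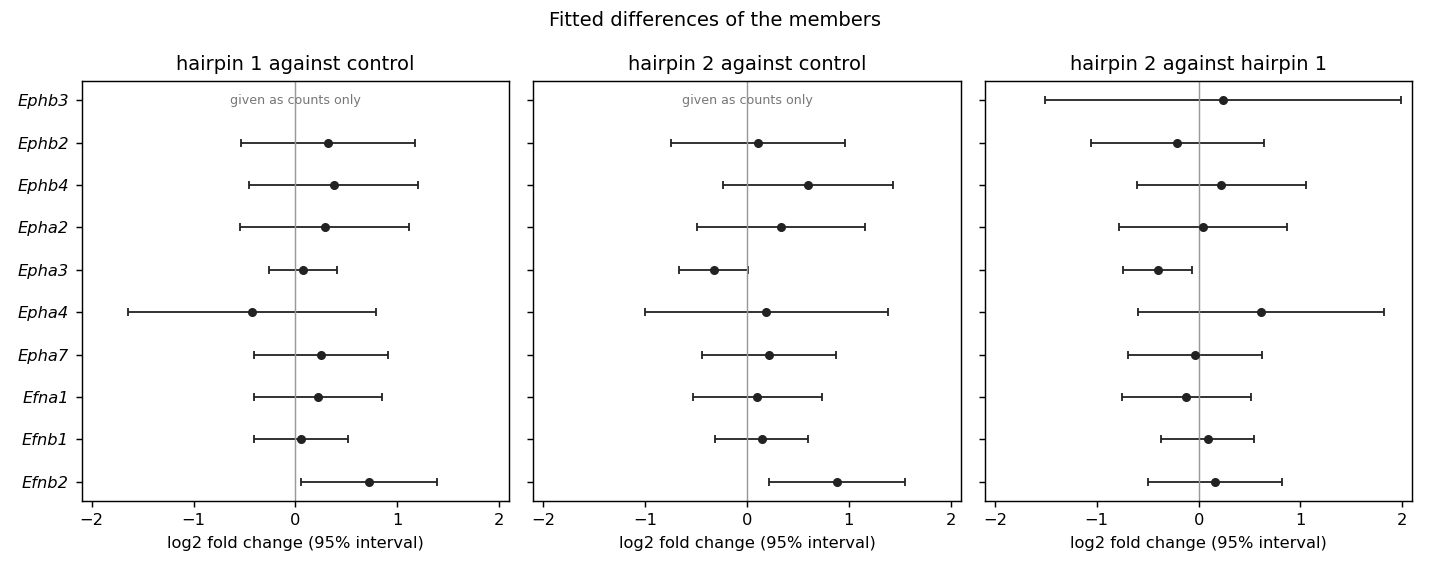
Fitted log2 fold changes of the members with 95% intervals, for the 3 comparisons, positive where the first-named group is higher. Ephb3 is left out of both comparisons with control; Efnb2 lies above 0 in both of these, at 0.73 and 0.88, and Epha3 lies below 0 between the hairpins, at -0.40.

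Of the 12 family genes that are no members, 7 were tested and none passed the adjusted threshold. Epha6 and Epha8 had 0 counts in every library, and Epha10, Ephb1 and Efna2 summed to 15, 71 and 67 counts over the 9 libraries. Among the tested ones, Epha5, an A-class receptor of the nervous system named here after its values were seen, had 32, 13 and 23 counts in the controls, 14, 37 and 32 labelled hairpin 1 and 40, 51 and 68 with hairpin 2. The hairpin 2 libraries were above all others in CPM, at 2.51 to 4.14 against 0.829 to 2.49. The log2 fold change with hairpin 2 was 1.22 (SE 0.47, unadjusted p = 0.0269, edgeR adjusted p = 0.291). The other tested genes had 236 to 374 counts per library for Efna5, 122 to 294 for Efna4, 26 to 80 for Ephb6, 10 to 38 for Efnb3, 4 to 30 for Efna3 and 7 to 22 for Epha1.

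Partners of Eph signalling were taken as a list of 46 genes that includes adaptors, guanine nucleotide exchange factors, Src family kinases, phosphatases and the sheddase Adam10. Of these 43 were tested, and 0 passed the adjusted threshold in any comparison. Labelled hairpin 1, 21 were positive and 22 negative (median 0.00), and with hairpin 2, 35 were positive and 8 negative (median 0.16), where 52.6% and 51.5% of all tested genes were positive (median 0.01 in both). At an unadjusted p under 0.05 there were 0 and 11, against 3.17% and 14.4% of all genes. Between the hairpins 35 were positive (median 0.16), where 50.2% of all genes were, and 9 had an unadjusted p under 0.05, against 11.7% of all genes. The partners are long genes, with a median transcript of 4995 bases against 3205.5 for all tested genes. Across genes the log2 fold change with hairpin 2 went with transcript length (Spearman's rho 0.373 over 14106 genes, which are not independent). The rho was 0.419 between the hairpins and -0.019 labelled hairpin 1. Whether length accounts for the partner values was not tested. With each library's length trend removed, 26 of 43 partners were positive with hairpin 2 (median 0.04) and 26 between the hairpins (median 0.05). The members had a median transcript of 4770.5 bases, and Efnb2 stood at 0.78 with hairpin 2 under the same removal. The 5 partners of highest level were Sdcbp, whose product syntenin binds the tails of B-class ephrins, at 835 ± 89.5 CPM in the controls, 804 ± 75.7 labelled hairpin 1 and 950 ± 111 with hairpin 2, followed by the GTPase genes Rac1, Cdc42 and Rhoa and the adaptor Git1, whose control means were 452, 291, 293 and 245 CPM.

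Markers of host tissue differed between the same libraries. The 16 fibroblast and matrix markers, all counted, summed to 294 to 633 CPM in the controls, 414 to 4063 labelled hairpin 1 and 437 to 1915 with hairpin 2. The 14 endothelial markers, all counted, summed to 268 to 319, 301 to 434 and 280 to 496 CPM, and the 11 pericyte and smooth muscle markers to 202 to 281, 225 to 411 and 286 to 477 CPM. Of the hairpin libraries, the second labelled hairpin 1 (225 CPM) lay inside the control range of the pericyte and smooth muscle sum, and all others lay above it. Of 12 keratinocyte markers, 8 were at 0 in every library, namely Krt5, Krt14, Krt1, Krt15, Krt17, Trp63, Dsg3 and Lor, and the other 4 summed to 1.78 to 11.01 CPM. Macrophage and leukocyte markers ran from 112 to 327, from 119 to 410 and from 45.0 to 446 CPM, and the 10 Schwann cell markers from 176 to 232, 148 to 220 and 171 to 223 CPM. The 7 erythroid markers in the files summed to 2544 to 4976 CPM in the controls, 1037 to 1493 labelled hairpin 1 and 422, 21541 and 527 with hairpin 2, so that 5 of the 6 hairpin libraries lay below every control and hairpin 2 replicate 2 above all others. The 8 skeletal muscle markers ran from 3.27 to 16.7 CPM over all libraries. Members were set against the fibroblast and endothelial lists alone, and the part of the other lists in the member values was not tested.

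For Ephb3 the relation to these lists is a description with no test, since the step between control and hairpin libraries that chose the members is part of it. Pearson's r with the mean log2 CPM of the fibroblast list was 0.789 across the 9 libraries, 0.652 without the 2 libraries farthest from the median and 0.686 with group means removed. With the endothelial list it was 0.748, 0.752 and 0.546. In each hairpin group 1 library had the least of both marker sums, the second of those labelled hairpin 1 and hairpin 2 replicate 1. Their fibroblast sums of 414 and 437 CPM and endothelial sums of 301 and 280 CPM lay inside the control ranges. Such sums rest mostly on the most abundant markers, and single markers did not all follow. The single markers given next were named after their values were seen. Pdgfra was above every control in both libraries (1.21 and 0.879 against 0.357 to 0.850 CPM), as was Fap (0.605 and 0.314 against 0.179 to 0.238 CPM). So was Tie1 of the endothelial list (17.8 and 15.4 against 12.7 to 13.7 CPM). Thy1 was below every control in both (7.80 and 9.10 against 9.93 to 22.9 CPM). Emcn was below as well, though barely in the first (7.9369 and 7.03 against 7.9370 to 9.64 CPM). Of the pericyte and smooth muscle sums of these libraries, 225 CPM lay inside and 286 CPM above the control range. Their erythroid sums of 1037 and 422 CPM lay below it. Ephb3 stood at 0.942 and 0.314 CPM and Efnb2 at 7.20 and 7.78 CPM in these libraries.

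Efnb2 had r = 0.719 with the endothelial list (permutation p = 0.0205, adjusted p = 0.142 over 20 relations) and rho 0.65 (permutation p = 0.0666, adjusted p = 0.333). Those 20 relations include both of Ephb3, which are given above with no test. The adjusted values in this paragraph are lower than they would be without these. The r of Efnb2 was 0.37 without the 2 farthest libraries, so the relation rests largely on those, and 0.515 with group means removed. Epha2 had r = 0.756 with the endothelial list (permutation p = 0.0224, adjusted p = 0.142) and rho 0.717 (permutation p = 0.0369, adjusted p = 0.254), with r of 0.523 and 0.764 in the same checks. Epha3 had r of -0.549 with the fibroblast list and -0.523 with the endothelial list (permutation p = 0.118 and 0.158, adjusted p = 0.473 and 0.526), with rho of -0.617 and -0.333 (permutation p = 0.0857 and 0.385, adjusted p = 0.343 and 0.794). Without the 2 farthest libraries its r was -0.446 and -0.333, and with group means removed -0.816 and -0.783. No relation of the 9 members other than Ephb3 passed after adjustment, and groups of 3 libraries were too small for values within a group.

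**Figure D4:**
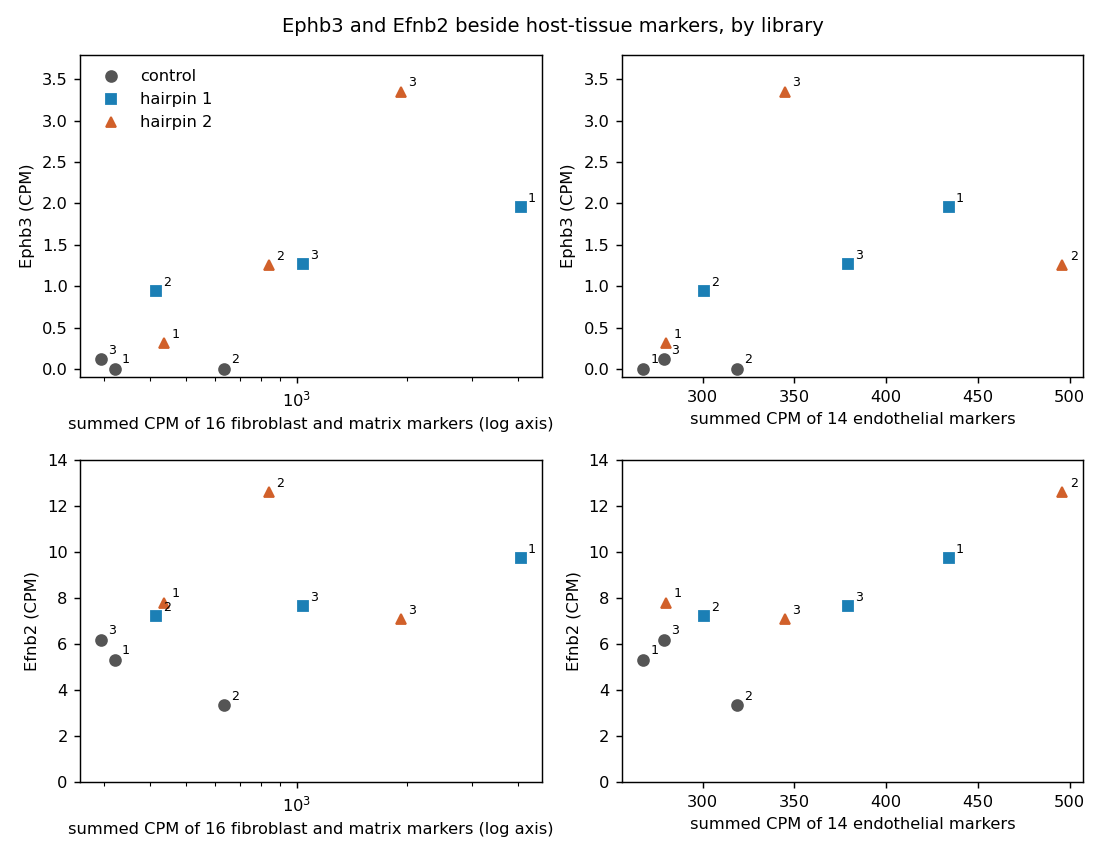
Ephb3 and Efnb2 (CPM, upper and lower rows) against the summed level of 16 fibroblast and matrix markers (log axis, left) and 14 endothelial markers (right) in each library, numbered by replicate. The second library labelled hairpin 1 and the first of hairpin 2 share the control range of both of these sums. They do not share that of every marker list or single marker. They stand at 0.942 and 0.314 CPM of Ephb3 and 7.20 and 7.78 CPM of Efnb2.

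The genes whose pattern was most like that of Ephb3, by Pearson's r of log2 CPM over the 9 libraries among 12888 genes with a mean of at least 1 CPM, were Eln (r = 0.957), Id3 (0.934), Gimap6 (0.924), Gpm6b (0.912) and Gm5854 (0.91). Eln, the gene of elastin, stood at 0.597, 0.392 and 0.892 CPM in the controls, 5.03, 2.29 and 3.98 CPM labelled hairpin 1 and 0.941, 7.40 and 14.9 CPM with hairpin 2. As for Ephb3, replicate 1 of hairpin 2 was close to the controls and replicate 3 of hairpin 2 was highest. Id3, whose product blocks DNA binding by helix-loop-helix proteins, ranged from 3.69 to 4.31 CPM in the controls, 8.41 to 14.6 CPM labelled hairpin 1 and 4.83 to 11.03 CPM with hairpin 2. Of the family, Efnb2 came closest to Ephb3, with r = 0.729 and rank 194, followed by Epha5 with r = 0.453 and rank 1326. Efna4, Efna5 and Epha3 ran the other way, with r of -0.61, -0.598 and -0.48. The step between control and hairpin libraries that chose the members is part of each r. Genes with such a step, as reported above for Efnb2, can rank higher through it. How much of each r comes from the step was not tested, and this order carries no test.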

How the data were processed

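The authors deposited whole-number counts per gene symbol, 1 file per library, for 9 bulk RNA-seq libraries. The tools listed, with no role, in the submitters' processing notes are STAR (2.7.0d) and Cufflinks; the builds listed there, GRCh38 and hg38, are human while the symbols are mouse. Which counter, annotation and strand setting were used is not given in the sources used here. Groups came from the sample titles. Counts were filtered (filterByExpr, minimum count 10, minimum total 15), TMM-scaled and fitted with edgeR 4.0.16 (R 4.3.3), robust quasi-likelihood, all 9 libraries in 3 groups, since these then share 1 estimate of the spread, with Benjamini-Hochberg adjustment over 14193 genes and a threshold of 0.05. Log2 CPM used a prior count of 2. Lengths and positions came from GENCODE M21 (GRCm38) and promoters from RefSeq, where all 10 members matched.

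The members and lists were chosen with earlier results of these data known. Named were all members, Fbxo38, the 5 most abundant partners (any past the threshold too) and the 5 genes most correlated with Ephb3. The other family genes were named with their counts. The further values of Epha5 and the single fibroblast and endothelial markers were picked after they were seen. Alternatives were RLE scaling, no filter, DESeq2 1.42.0, limma-voom (limma 3.58.1), 2-group fits, a replicate block and leaving out each library; leaving out both libraries that stood apart and removing the length trend were added after seeing the data. The test was checked on simulated counts with known changes. Over the 3 comparisons it recovered 42 to 50% of 2-fold changes and 62 to 81% of 4-fold changes. Many changes of 2-fold or less, and some of 4-fold, would therefore be missed. Of its calls, 2.80 to 8.53% were false. The shares for hairpin 2 against control (5.15%) and between the hairpins (8.53%) lay above the rate set by the threshold. That labelled hairpin 1 (2.80%) lay below it. Recovery in the real libraries was not tested and may be lower. Within groups every pair of libraries differed by more than sampling noise (chi-square divided by its degrees of freedom, 20.7 to 72.3).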

Additional observations from a re-analysis of the deposited data

How the results depend on the processing

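For the 28 member differences tested, 437 of 476 alternative values kept their direction and none passed the threshold. Efnb2 was positive against control in both hairpin groups under every alternative run. edgeR called 0 genes in each comparison; for hairpin 2 against control and against hairpin 1, DESeq2 called 303 and 89, the fit without a filter 4 and 2, and leaving out single libraries 0 to 2 and 0 to 1, the highest without replicate 1 of hairpin 2. The cause was not tested. With the length of merged exons Epha3 stood at 22.3, 23.5 and 17.8 CPM per kb, lower because that length is greater.

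Replicate numbers did not pair the libraries (correlations of same-numbered deviations -0.41 to 0.14). The replicate block kept 0 calls, left 287, 1498 and 1141 genes at an unadjusted p under 0.05 in place of 450, 2046 and 1655, and turned Ephb3 (-0.19), Epha2 (-0.017) and Epha7 (0.027) between the hairpins. By limma-voom Ephb3 (-0.25) and Epha7 (0.022) turned there. Without both libraries that stood apart, Ephb2 (0.092), Ephb4 (-0.19), Epha2 (-0.25) and Efnb2 (-0.0024) turned between the hairpins, and Epha2 (-0.056), Epha4 (-0.026) and Efna1 (-0.014) turned with hairpin 2. With the length trend removed, Ephb2 (-0.21), Epha4 (-0.039) and Epha7 (-0.0096) turned with hairpin 2, and Epha2 (-0.0048) and Efna1 (0.038) between the hairpins.

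Leaving out single libraries moved these log2 fold changes across 0. Labelled hairpin 1 against control the ranges were Epha3 -0.048 to 0.15, Epha4 -0.83 to 0.14, Epha7 -0.14 to 0.41, Efnb1 -0.052 to 0.19, Fbxo38 -0.39 to 0.026. With hairpin 2 against control they were Ephb2 -0.16 to 0.44, Epha2 -0.049 to 0.51, Epha4 -0.21 to 0.74, Efna1 -0.043 to 0.20. Between the hairpins they were Ephb3 -0.81 to 0.73, Ephb2 -0.44 to 0.043, Ephb4 -0.076 to 0.44, Epha2 -0.33 to 0.25, Epha7 -0.20 to 0.34, Efnb1 -0.0497 to 0.20, Efnb2 -0.14 to 0.32.

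Of 20 correlations with marker lists, 9 changed sign. With group means removed, r with the endothelial list was -0.060 for Ephb2, -0.136 for Ephb4, -0.0729 for Efna1 and -0.183 for Efnb1, and with the fibroblast list -0.0866 for Efnb2. Without the 2 farthest libraries it was -0.0518 for Epha4 and -0.146 for Efnb1 with the endothelial list, and 0.368 for Ephb4, 0.766 for Efna1 and 0.287 for Efnb1 with the fibroblast list. The cause was not tested. Depth limits the Ephb3 ratios, which rest on 2 control counts.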
